A study of Rattus norvegicus with 60 samples.

Results

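The genes followed here are 36 named regulators and markers of the cell cycle, of which 35 had a row among the 32545 genes counted; Ccnb2 was not analysed here. They were taken by gene symbol and fall into roles: the replicative helicase (MCM2 to MCM7), the replication clamp and nucleotide supply, cyclins with their kinase and transcription factors, mitotic kinases and checkpoint proteins, spindle and kinetochore proteins, 2 chromatin markers of proliferation, and the CDK inhibitor gene Cdkn1a. RNA was measured in kidney outer medulla and cortex of a NOX4 knockout line (NOX4) and of the wild-type Dahl salt-sensitive rats (SS) it derives from, a strain whose blood pressure rises on salt. Each strain was sampled under control conditions (LS) and after a diet with 4.0% NaCl had been fed for 7 days (HS7) or 21 days (HS21). With 5 libraries in each of 12 combinations of tissue, strain and diet, there were 60 in all. All animals, NOX4 and SS, share the Dahl salt-sensitive background; the labels name no allele, sex, age or salt content of the control diet. They do not say whether the 5 libraries of a group are separate animals, so p-values measure the spread between these samples, which may be technical.

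Outer medulla libraries held 11.5 to 29.2 M counts (M for mega; median 18.6 M) and cortex libraries 12.6 to 29.6 M (median 19.2 M). Nox4 itself averaged 65.3 to 66.5 CPM (a read count relative to its library's scaled total) in NOX4 cortex groups and 316 to 426 CPM in SS cortex groups. In outer medulla, where its level was low, the group means were 5.04 to 5.85 CPM in NOX4 and 9.75 to 35.7 CPM in SS. The highest of these, SS HS7, rests on uneven libraries, which ranged over 6.46 to 111 CPM. Sums of thick ascending limb and podocyte markers separated the tissues as labelled. Thick ascending limb markers summed to 5990 to 21500 CPM in outer medulla libraries and 1930 to 5520 CPM in cortex libraries. Podocyte markers summed to 184 to 329 CPM and 408 to 863 CPM. Other lists overlapped between the tissues. Collecting duct principal cell markers summed to 678 to 4540 CPM in outer medulla and 496 to 1420 CPM in cortex. Markers of proximal tubule segment S3 summed to 556 to 10600 CPM and 1560 to 6960 CPM. Their median was lower in outer medulla than in cortex in SS (1990 and 4010 CPM) and higher in NOX4 (5840 and 2170 CPM). No marker was at 0 in all libraries of a tissue. Of the SS libraries at LS or HS7, 11 (6 in outer medulla, 5 in cortex) were of low complexity, meaning that 10 or more genes whose median in the tissue lay between 2 and 5 CPM were without a read once the library was thinned to 10 M counts. Applied to all 60 libraries, the rule was met by these 11 alone, and by no NOX4 or SS HS21 library. Low complexity was thus unevenly spread over strain and diet. In cortex, NOX4 HS7 replicates 3 and 4 stood apart for the cell cycle genes themselves. Counts of called cell cycle genes that rest on these libraries are given with and without them.

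The cell cycle runs through G1, S, G2 and mitosis under cyclins and the cyclin-dependent kinases (CDKs) they activate. E2F transcription factors switch on S-phase genes, among them those for the MCM helicase that opens replication origins, and the repressor complex DREAM with the activators B-MYB and FOXM1 times the later mitotic genes. Adult renal tubule cells divide rarely, re-enter the cycle after injury, and share the tissue with interstitial, endothelial and immune cells that can divide as well. In whole-tissue RNA, fewer dividing cells and less of an RNA per dividing cell cannot be told apart. The CDK inhibitor p21, the product of Cdkn1a, halts the cycle and is itself induced by injury and by p53.

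Promoter windows show the letter patterns through which these classes are thought to be timed. RefSeq windows on the GRCr8 assembly, each from 250 bases before to 50 after the gene's start, matched 26 of the 35 genes. They were searched on both strands for the CHR element (TTTGAA or TTCGAA), the CCAAT box (CCAAT) and an E2F site, written as TTT, then a pair of letters each C or G, then CGC. A CHR element was in 13 of 26 windows, against 19.7% of the 33469 windows of all genes, and a CCAAT box in 19 of 26, against 37.5%. Both together were in 11 of 26, against 7.95%, and an E2F site was in 7 of 26, against 2.14%. All 5 MCM windows held an E2F site. Among 16 windows of the later, mitotic genes, 10 held a CHR element, 13 a CCAAT box and 1 an E2F site. Matches overlapped each other in the windows of Mcm2, Mcm5, Mcm6, Mcm7, Cdca8 and Mki67. A match describes letters, not binding. Mcm4, Rrm2, Ccne2, E2f1, Ccna2, Foxm1, Aurkb, Ube2c and Tpx2 had no matching entry.

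The windows printed here are those of 3 mitotic genes that were lower in NOX4 in both tissues, of 1 helicase gene, and of Kif11, which was lower in outer medulla than in cortex. These 3 mitotic genes each held a CHR element and a CCAAT box. Of other mitotic genes lower in both tissues, Cenpe and Kif20a held a CCAAT box but no CHR element, and Nusap1 held both. Capitals mark the motif matches as they read on the printed strand, so a match on the other strand reads as its reverse complement (ATTGG for CCAAT). Top2a lies at chr10:84473044-84473343, minus strand. Cenpf lies at chr13:103760837-103761136, minus strand, and Mki67 at chr1:199952544-199952843, minus strand. Mcm6 lies at chr13:42404303-42404602, minus strand, and Kif11 at chr1:244536617-244536916, plus strand.
Top2a: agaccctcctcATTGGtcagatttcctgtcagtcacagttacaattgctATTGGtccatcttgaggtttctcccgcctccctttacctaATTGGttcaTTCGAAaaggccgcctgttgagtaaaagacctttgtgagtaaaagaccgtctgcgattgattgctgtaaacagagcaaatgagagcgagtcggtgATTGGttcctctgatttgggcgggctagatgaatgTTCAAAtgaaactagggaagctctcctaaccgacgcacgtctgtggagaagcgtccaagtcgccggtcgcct
Cenpf: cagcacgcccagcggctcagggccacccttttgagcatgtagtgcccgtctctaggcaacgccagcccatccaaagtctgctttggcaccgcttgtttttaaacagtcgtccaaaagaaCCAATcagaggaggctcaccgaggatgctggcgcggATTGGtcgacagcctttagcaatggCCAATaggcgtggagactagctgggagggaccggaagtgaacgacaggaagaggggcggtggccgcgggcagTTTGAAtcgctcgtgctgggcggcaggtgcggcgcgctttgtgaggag
Mki67: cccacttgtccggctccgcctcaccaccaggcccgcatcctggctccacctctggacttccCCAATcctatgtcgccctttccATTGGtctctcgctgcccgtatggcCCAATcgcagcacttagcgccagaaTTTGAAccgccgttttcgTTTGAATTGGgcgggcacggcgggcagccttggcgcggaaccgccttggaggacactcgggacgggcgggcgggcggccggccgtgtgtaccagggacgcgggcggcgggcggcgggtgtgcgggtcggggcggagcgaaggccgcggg
Mcm6: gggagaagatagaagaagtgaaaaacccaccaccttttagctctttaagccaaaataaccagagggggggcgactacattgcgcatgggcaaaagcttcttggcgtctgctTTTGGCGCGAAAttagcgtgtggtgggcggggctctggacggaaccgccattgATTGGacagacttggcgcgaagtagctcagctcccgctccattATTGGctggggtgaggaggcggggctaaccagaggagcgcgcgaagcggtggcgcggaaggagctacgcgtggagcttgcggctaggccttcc
Kif11: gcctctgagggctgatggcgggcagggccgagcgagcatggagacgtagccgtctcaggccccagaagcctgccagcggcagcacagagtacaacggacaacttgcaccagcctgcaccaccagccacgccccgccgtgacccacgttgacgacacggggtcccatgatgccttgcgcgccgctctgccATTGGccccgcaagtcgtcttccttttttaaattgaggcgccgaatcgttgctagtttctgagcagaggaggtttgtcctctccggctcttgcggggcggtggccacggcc

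In the outer medulla, spindle, kinetochore and checkpoint genes were lower in NOX4 than in SS rats, with a median log2 fold change of -0.54 over 6 spindle and kinetochore genes and -0.28 over 6 helicase genes. Averaged over the 3 diets, edgeR called 17 of the 35 genes lower and 0 higher at an adjusted p under 0.05, where 15.1% of the 15799 genes tested were called lower. The median log2 fold change over the 35 genes was -0.32, with 32 of 35 below 0, against -0.02 over all genes tested. By role, 5 of 6 spindle and kinetochore genes fell, both chromatin markers, 2 of 5 mitotic kinases and checkpoint genes, 2 of 3 G1/S cyclins and E2F genes, 1 of 4 later cyclins and partners, 3 of 6 helicase genes and 2 of 4 clamp and nucleotide genes. Neither the chromosomal passenger pair (Birc5, Cdca8), nor the anaphase-promoting complex pair (Cdc20, Ube2c), nor Cdkn1a passed the test.

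Cenpe (ENSRNOG00000009339), a kinetochore motor that aligns chromosomes, had 3.20 to 9.82 CPM (median 5.53) in the NOX4 libraries, against 5.93 to 15.7 CPM (median 9.81) in the SS libraries (15 libraries each). 8 of the 15 NOX4 libraries lay under every SS library, and its averaged difference had the smallest p among the cell cycle genes (log2 fold change -0.88 ± 0.14 (SE), adjusted p = 5.3e-05). Bub1 (ENSRNOG00000032778) encodes a kinase of the spindle checkpoint. It had 3.98 to 11.2 CPM (median 6.27) in the NOX4 libraries, against 6.23 to 19.7 CPM (median 11.2) in the SS libraries, and 7 NOX4 libraries lay under every SS library (log2 fold change -0.77 ± 0.13 (SE), adjusted p = 0.000126). Ccne2 (ENSRNOG00000008055), the gene of cyclin E2, which drives entry into S phase with CDK2, had 4.95 to 8.85 CPM (median 7.25) in the NOX4 libraries, against 6.53 to 20.03 CPM (median 10.5) in the SS libraries. The ranges overlapped, with 11 of 15 SS libraries above every NOX4 library (log2 fold change -0.59 ± 0.10 (SE), adjusted p = 0.000159).

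Cenpf (ENSRNOG00000003388), a kinetochore protein made in G2 and mitosis, had 3.34 to 16.1 CPM (median 11.9) in the NOX4 libraries, against 9.60 to 28.8 CPM (median 19.5) in the SS libraries. 10 SS libraries exceeded all NOX4 libraries (log2 fold change -0.82 ± 0.17 (SE), adjusted p = 0.000709). Mcm4 (ENSRNOG00000001833), a subunit of the replicative helicase, had 15.9 to 24.6 CPM (median 18.7) in the NOX4 libraries, against 16.8 to 35.6 CPM (median 25.8) in the SS libraries, a smaller difference with a tighter spread (log2 fold change -0.45 ± 0.09 (SE), adjusted p = 0.000959). Top2a (ENSRNOG00000053047), the topoisomerase that untangles sister chromatids, had 8.28 to 35.2 CPM (median 23.4) in the NOX4 libraries, against 19.03 to 48.1 CPM (median 36.8) in the SS libraries (log2 fold change -0.68 ± 0.15 (SE), adjusted p = 0.00174). Mki67 (ENSRNOG00000028137), which encodes the proliferation antigen Ki-67, had 8.63 to 54.5 CPM (median 24.2) in the NOX4 libraries, against 18.9 to 54.9 CPM (median 43.1) in the SS libraries (log2 fold change -0.67 ± 0.16 (SE), adjusted p = 0.00255). For both chromatin markers the strains overlapped, and 15 of 15 NOX4 libraries for Top2a and 14 for Mki67 lay below the SS median. The other 10 genes called were Bub1b, Rrm2, Tpx2, Mcm6, Kif20a, Rrm1, Nusap1, Mcm3, Ccna2 and E2f1, from -0.71 ± 0.17 for Rrm2, the regulatory subunit of ribonucleotide reductase, to -0.21 ± 0.06 for its partner Rrm1.

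Not every gene of the set was lower in NOX4 outer medulla. Mcm2 (ENSRNOG00000016316), a helicase subunit, had 33.2 to 48.8 CPM (median 41.5) in the NOX4 libraries, against 24.1 to 61.3 CPM (median 41.99) in the SS libraries, and NOX4 libraries lay inside the SS range (log2 fold change -0.05 ± 0.10 (SE), adjusted p = 0.727). Pcna, the sliding clamp of DNA polymerases that also serves DNA repair, had 56.2 to 68.3 CPM (median 63.3) in the NOX4 libraries, against 46.4 to 78.5 CPM (median 62.3) in the SS libraries (log2 fold change 0.01 ± 0.06 (SE), adjusted p = 0.943). Ccne1 (ENSRNOG00000014786), the gene of cyclin E1, had 0.934 to 4.29 CPM (median 2.55) in the NOX4 libraries, against 0 to 5.56 CPM (median 3.34) in the SS libraries (log2 fold change -0.11 ± 0.30 (SE), adjusted p = 0.801). Cdkn1a (ENSRNOG00000000521) had 5.35 to 18.2 CPM (median 8.23) in the NOX4 libraries, against 2.35 to 34.5 CPM (median 11.6) in the SS libraries, where the highest value is 1 SS library at LS (log2 fold change -0.34 ± 0.26 (SE), adjusted p = 0.332).

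**Figure D1:**
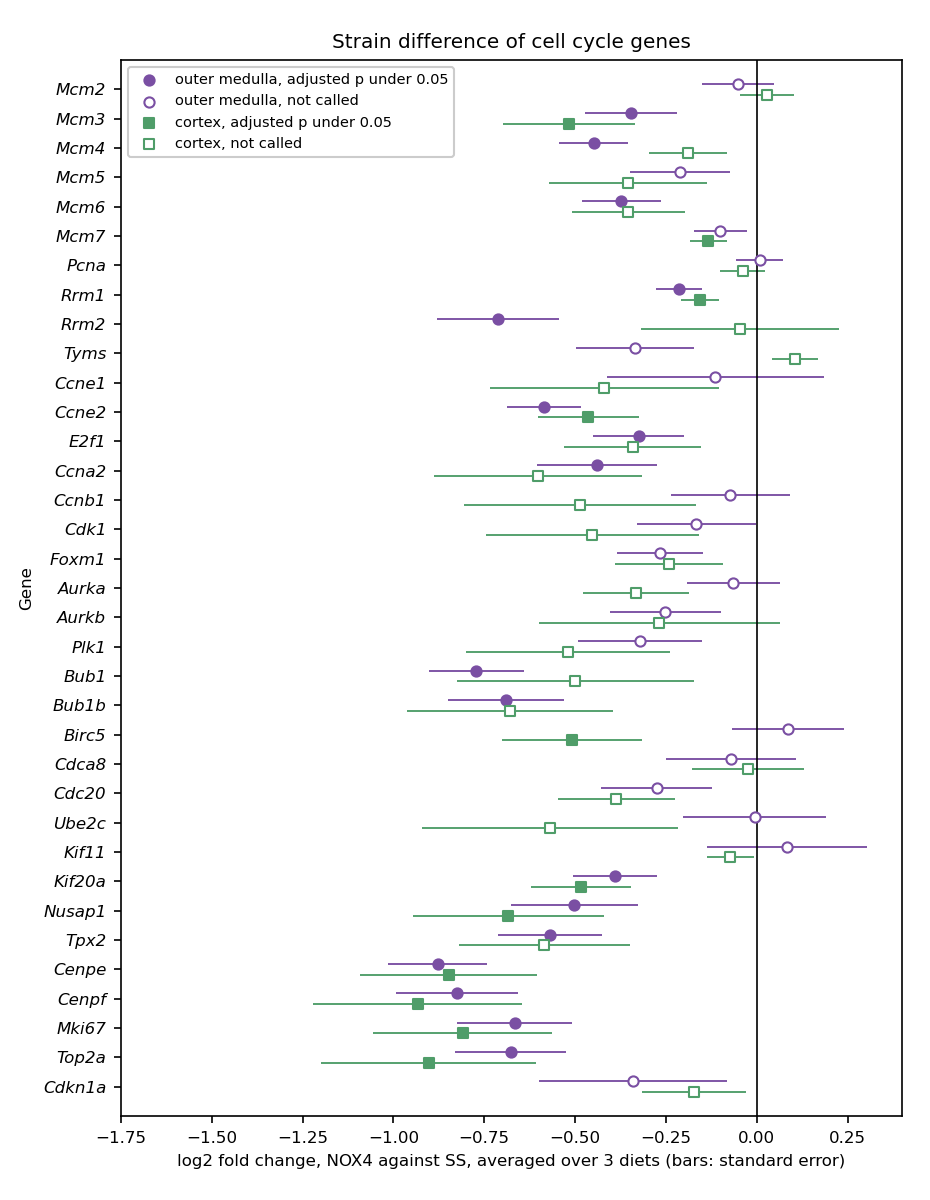
Log2 fold change of NOX4 against SS averaged over 3 diets (x axis) for 35 cell cycle genes (rows), with circles for outer medulla, squares for cortex, filled symbols for genes called at an adjusted p under 0.05, and bars for the standard error. Most symbols lie left of 0, with Cenpe and Cenpf farthest left in outer medulla (-0.88 and -0.82) and Pcna, Mcm2 and Kif11 close to 0 in both tissues.

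Other tissue components moved with the strain as well. In the outer medulla 9 of 10 fibroblast and myofibroblast markers were lower in NOX4 (median log2 fold change -0.99), and their summed level was 1490 to 3300 CPM in NOX4 libraries and 1220 to 7210 CPM in SS libraries. Of 17 tubular injury markers 12 were lower, with sums of 4410 to 9470 CPM in NOX4 and 3920 to 14200 CPM in SS. Of 11 markers of proximal tubule segment S3, 8 were higher and 1 lower, with sums of 2410 to 9510 CPM in NOX4 and 556 to 10600 CPM in SS. Macrophage markers were lower for 3 of 13 (1320 to 3580 CPM in NOX4, 938 to 2520 CPM in SS) and lymphocyte markers for 1 of 12 (106 to 163 CPM in NOX4, 83.8 to 203 CPM in SS). No marker of these lists was at 0 in all libraries. Their part in the cell cycle result was not tested. With the mean log2 CPM of the S3 markers as a covariate, 5 of the 17 genes were called (Bub1, Bub1b, Ccne2, Cenpe and Tpx2). Without the low-complexity libraries 16 of the 17 were called, all but Mcm3, and Ccne1 was called in addition.

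**Figure D2:**
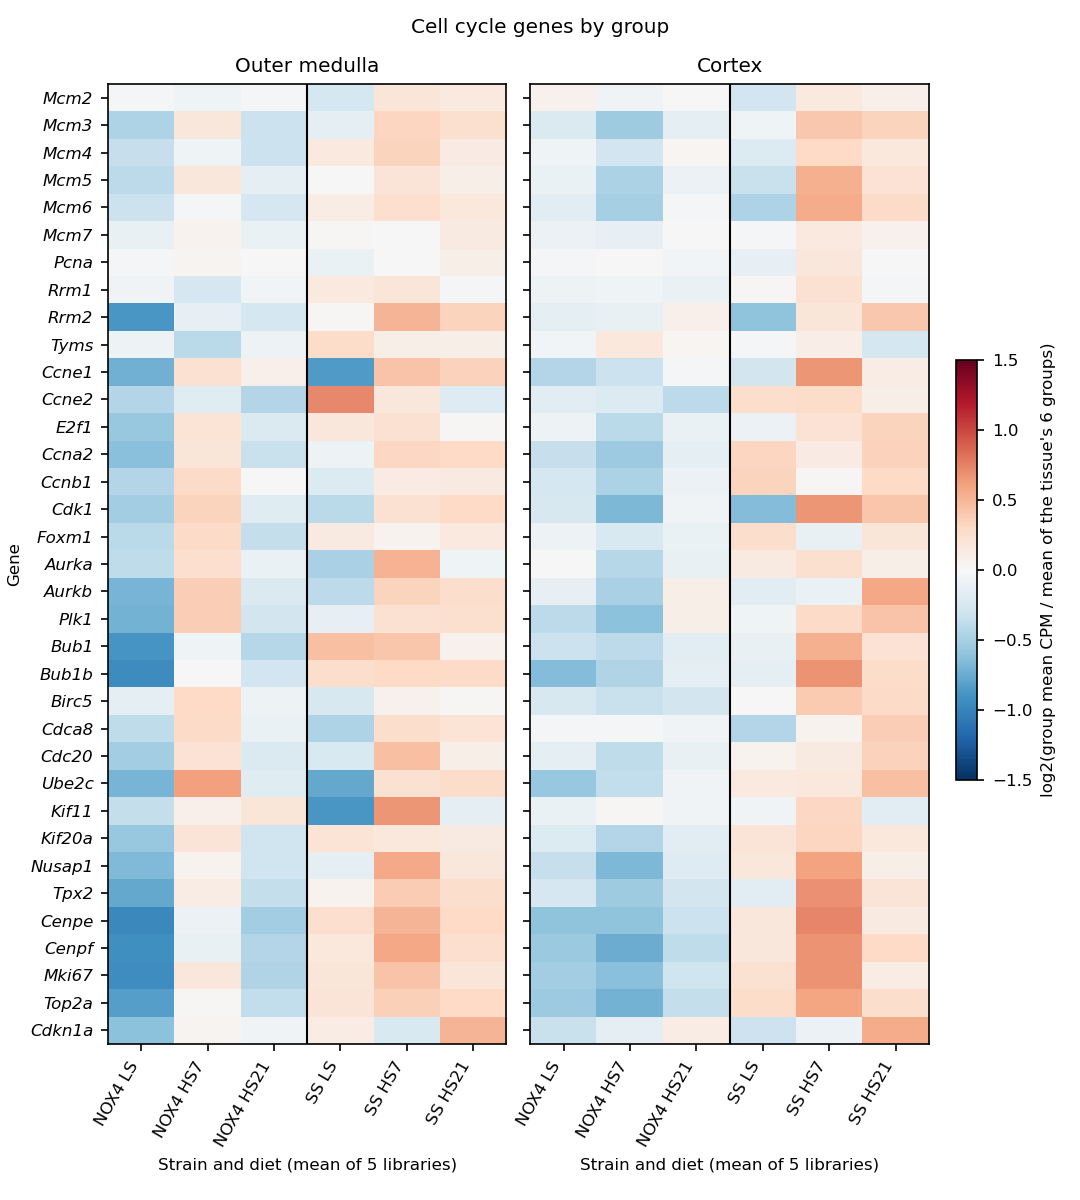
Group means of 35 cell cycle genes (rows) in outer medulla (left) and cortex (right) by strain and diet, each cell the mean CPM of 5 libraries over the mean of the 6 groups of that tissue on a log2 scale. Blue, the lower side, fills much of the NOX4 LS column in outer medulla, and the SS HS7 column in cortex is mostly red.

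The strains were also compared in outer medulla at each diet. At LS edgeR called 12 of 35 genes lower in NOX4 and 0 higher, where 6.05% of all genes were called lower, and the median was -0.43 with 27 of 35 below 0. Ccne2 had 6.50, 7.47, 7.16, 6.15 and 7.22 CPM in NOX4 libraries, against 12.2, 19.99, 10.8, 13.9 and 20.03 CPM in SS libraries. The groups did not overlap (log2 fold change -1.16 ± 0.18 (SE), adjusted p = 0.000287). Bub1 had 4.14, 4.94, 6.08, 5.24 and 3.98 CPM in NOX4, against 8.39, 11.2, 13.1, 9.45 and 19.7 CPM in SS, again without overlap (log2 fold change -1.34 ± 0.23 (SE), adjusted p = 0.000707). Cenpe had 3.28, 3.73, 6.36, 3.20 and 4.21 CPM in NOX4, against 10.8, 7.36, 8.40, 9.81 and 11.99 CPM in SS, with each NOX4 library under the lowest SS library (log2 fold change -1.22 ± 0.24 (SE), adjusted p = 0.00195). Mki67 and Top2a did not overlap between the strains either, at 17.5 ± 6.14 CPM in NOX4 and 37.5 ± 8.21 CPM in SS for Mki67 (SD, n = 5 each). Of the 5 SS libraries at LS, 3 were of low complexity; without low-complexity libraries 4 of the 12 genes were called (Ccne2, Bub1, Cenpe and Mki67), and with the S3 covariate 4 (Ccne2, Bub1, Cenpe and Bub1b).

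At HS7 in outer medulla, 1 of 35 genes was called lower in NOX4, where 4.39% of all genes were called lower. This was Rrm1, the large subunit of ribonucleotide reductase, with 73.01, 69.3, 47.7, 58.01 and 70.4 CPM in NOX4, against 98.1, 86.1, 76.3, 74.4 and 92.1 CPM in SS. All NOX4 values were below all SS values (log2 fold change -0.42 ± 0.11 (SE), adjusted p = 0.0193), and the call was lost in a fit of these 2 groups alone. Without SS HS7 replicate 3, a low-complexity library with 20.2 CPM of Mki67 and sums of 8362 CPM for S1/S2 markers and 8597 CPM for thick ascending limb markers, 6 of the 35 were called. Without SS HS7 replicate 1 or 2, or NOX4 HS7 replicate 3 or 4, 0 were, and limma voom with quality weights called 8 with all libraries. At HS21 edgeR called 0 genes in outer medulla, where 1.63% of all genes were called in either direction. There 14 of the 35 had an unadjusted p under 0.05, as did 2804 of all 15799 genes, and 34 of 35 were below 0 with a median of -0.45. DESeq2 called 1, and limma voom run with quality weights 27. The share of all genes that limma voom called is not given here, so its counts of 8 and 27 stand without a baseline.

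In cortex too, spindle, kinetochore and chromatin genes were lower in NOX4 than in SS rats. Averaged over diets edgeR called 11 of 35 lower and 0 higher, where 15.0% of the 15179 genes tested were called lower; the median was -0.42 against 0.00 over all genes, with 33 of 35 below 0. Among them were 4 of 6 spindle and kinetochore genes, both chromatin markers, 2 of 6 helicase genes and 0 of 5 mitotic kinases and checkpoint genes. Kif20a (ENSRNOG00000024428), a kinesin of the late spindle needed for cell separation, had 3.67 to 12.3 CPM (median 8.27) in the NOX4 libraries, against 7.73 to 14.2 CPM (median 11.8) in the SS libraries (15 libraries each), and 6 NOX4 libraries lay under every SS library (log2 fold change -0.48 ± 0.14 (SE), adjusted p = 0.00792). Cenpe had 0.483 to 5.72 CPM (median 2.84) in the NOX4 libraries, against 2.10 to 8.43 CPM (median 5.54) in the SS libraries (log2 fold change -0.85 ± 0.24 (SE), adjusted p = 0.00857). Ccne2 had 3.07 to 5.96 CPM (median 4.29) in the NOX4 libraries, against 1.90 to 9.59 CPM (median 6.07) in the SS libraries, with all NOX4 libraries below the SS median (log2 fold change -0.46 ± 0.14 (SE), adjusted p = 0.0111).

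Cortex Mki67 had 1.46 to 22.99 CPM (median 13.2) in the NOX4 libraries, against 13.1 to 33.4 CPM (median 22.6) in the SS libraries (log2 fold change -0.81 ± 0.25 (SE), adjusted p = 0.0126). Cenpf there had 0.214 to 10.1 CPM (median 5.47) in the NOX4 libraries, against 6.11 to 14.7 CPM (median 11.2) in the SS libraries, and 9 of 15 NOX4 libraries lay under every SS library (log2 fold change -0.93 ± 0.29 (SE), adjusted p = 0.0132). Top2a had 0.407 to 18.6 CPM (median 11.02) in the NOX4 libraries, against 10.3 to 25.4 CPM (median 19.5) in the SS libraries, with all 15 NOX4 libraries under the SS median (log2 fold change -0.90 ± 0.30 (SE), adjusted p = 0.0196). Rrm1, Mcm3, Birc5 (survivin, of the chromosomal passenger complex), Nusap1 (a spindle microtubule protein) and Mcm7 were the other genes called, from -0.68 ± 0.26 for Nusap1 to -0.13 ± 0.05 for Mcm7. Mcm2, Ccne1 and Cdkn1a, named whatever their p, did not pass: Mcm2 with 16.8 to 28.6 CPM (median 21.8) in the NOX4 libraries, against 14.6 to 29.7 CPM (median 22.2) in the SS libraries (log2 fold change 0.03 ± 0.07 (SE), adjusted p = 0.802), Ccne1 with 0.116 to 1.82 CPM (median 0.937) in the NOX4 libraries, against 0 to 2.24 CPM (median 1.28) in the SS libraries (log2 fold change -0.42 ± 0.31 (SE), adjusted p = 0.326), and Cdkn1a with 5.30 to 16.8 CPM (median 9.29) in the NOX4 libraries, against 6.61 to 20.4 CPM (median 11.2) in the SS libraries (log2 fold change -0.17 ± 0.14 (SE), adjusted p = 0.379).

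**Figure D3:**
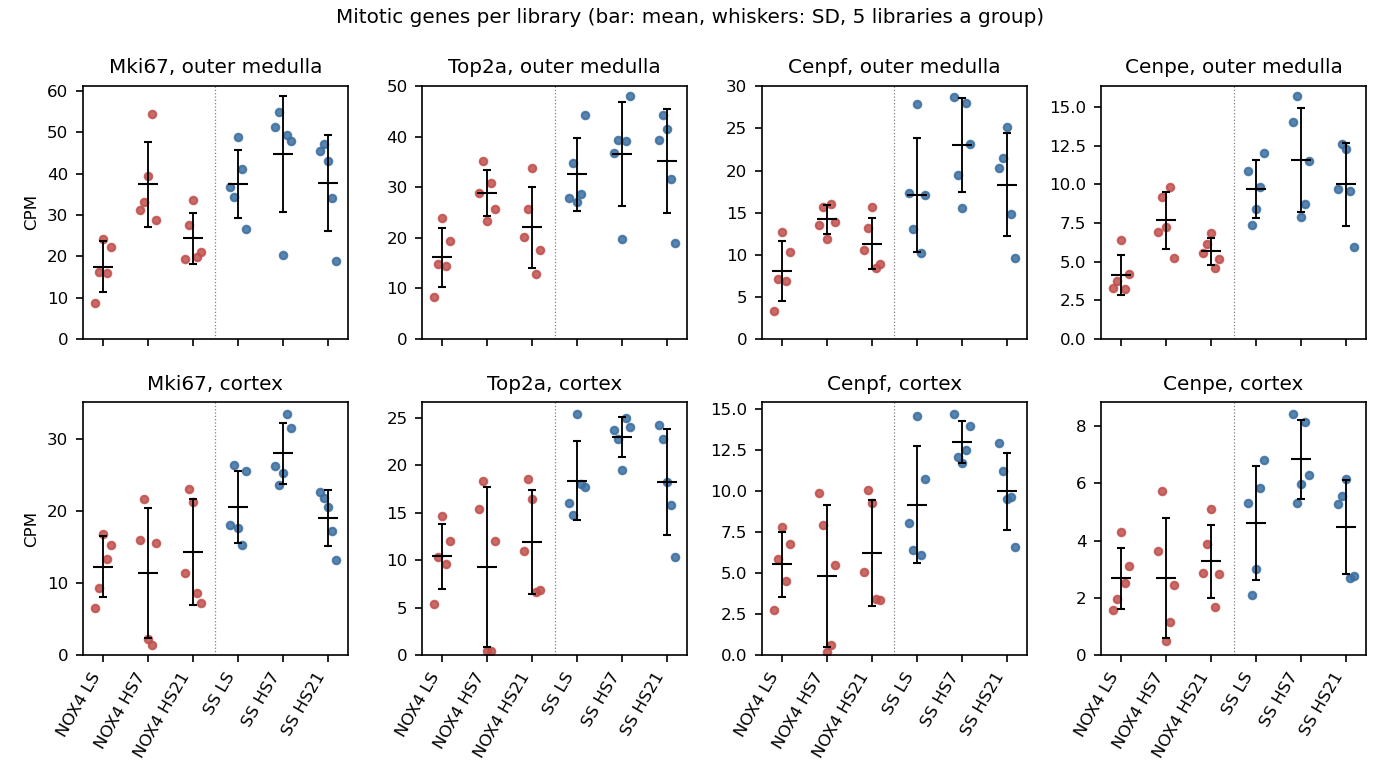
CPM of Mki67, Top2a, Cenpf and Cenpe in each library (points), with group mean and SD (n = 5), in outer medulla (top) and cortex (bottom), NOX4 groups left of SS groups and diets in the order LS, HS7, HS21. NOX4 HS7 cortex splits into 3 libraries near the other NOX4 libraries and 2 near 0, where Top2a was 0.429 and 0.407 CPM.

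The 2 libraries near 0 are NOX4 HS7 cortex replicates 3 and 4. Their summed level of the 35 genes was 282 and 281 CPM, against 408 to 463 CPM in the other 3 libraries of the group. In 18 of 35 genes both lay under all other 28 cortex libraries. The same count was not made over all genes, so whether 18 of 35 is a large share is not known. Top2a was 0.429 and 0.407 CPM there, where the lowest of the other 28 was 5.36 CPM, and Mki67 was 2.20 and 1.45 CPM, where the lowest of the others was 6.58 CPM. Kif11 was not low, at 85.5 and 85.9 CPM. Fibroblast markers summed to 424 and 514 CPM in the 2 libraries and to 745 to 897 CPM in the other 3, macrophage markers to 281 and 287 CPM and to 457 to 896 CPM, and lymphocyte markers to 22 and 24.3 CPM and to 40.6 to 76 CPM. S3 markers ran the other way, at 4280 and 4510 CPM against 1730 to 2220 CPM. The part of these differences in the cell cycle values was not tested. Counts of the 2 libraries differed by more than sampling noise, with a chi-square per degree of freedom of 7.37, near the low end of the 6.24 to 308 of 120 same-group pairs. That does not show that they came from different animals. They were kept as 2 samples because the labels list them as such. Their library names, C_62 and C_63, fall outside the number sequence of the other cortex libraries. Whether they were collected or prepared apart was not tested and cannot be told apart from a difference between samples.

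The cortex result at HS7 depended on these 2 libraries. With them, edgeR called 10 of 35 genes lower in NOX4 and 0 higher, where 7.77% of all genes were called lower, with a median of -0.66 and 34 of 35 below 0. Mcm6, a helicase subunit, had 12.2, 7.93, 3.11, 2.74 and 8.49 CPM in NOX4, against 12.6, 14.1, 14.02, 15.5 and 15.5 CPM in SS (log2 fold change -1.05 ± 0.27 (SE), adjusted p = 0.00862). The groups did not overlap. Rrm1 had 51.4, 50.98, 44.6, 41.7 and 47.6 CPM in NOX4, against 62.1, 59.2, 65.1, 49.7 and 52.6 CPM in SS, with an overlap (log2 fold change -0.29 ± 0.09 (SE), adjusted p = 0.0261). Mcm4 had 11.1, 7.98, 6.60, 6.11 and 11.6 CPM in NOX4, against 12.2, 12.6, 13.7, 12.3 and 14.5 CPM in SS, without overlap (log2 fold change -0.59 ± 0.19 (SE), adjusted p = 0.0287). Without the 2 libraries 0 of the 35 genes were called at HS7 (Mcm6 -0.58 ± 0.21, adjusted p = 0.0872), and without replicate 4 alone 1 was. Leaving out other single libraries also moved the count, over 1 to 13 in all. The fit of the 2 groups alone called 0 as well, and limma voom with quality weights 1. The diet-averaged cortex result kept 7 of its 11 genes without the 2 libraries: Kif20a, Cenpe, Ccne2, Mki67, Cenpf, Top2a and Nusap1. Without the low-complexity libraries 9 of the 11 were called, all but Nusap1 and Top2a, with Bub1, Ccnb1 and Mcm4 in addition. Without replicates 3 and 4 the averaged log2 fold change of Top2a was -0.67 ± 0.16, adjusted p = 0.00225.

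**Figure D4:**
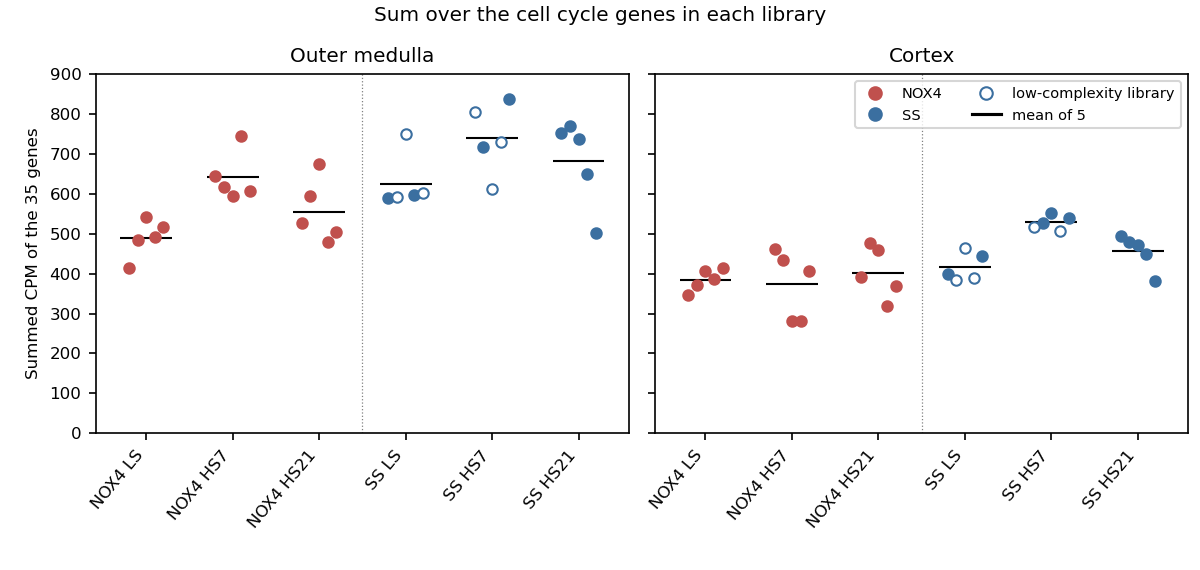
Summed CPM of the 35 genes in each library (y axis, points) by strain and diet, in outer medulla (left) and cortex (right), with open points for low-complexity libraries and lines for group means. NOX4 HS7 cortex replicates 3 and 4 are the lowest of all cortex libraries, at 282 and 281 CPM.

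At LS in cortex 1 of 35 genes was called higher and 0 lower, where 11.7% of all genes were called higher. That gene was Mcm2, with 25.7, 21.8, 24.6, 20.95 and 25.6 CPM in NOX4, against 18.99, 21.1, 14.6, 18.1 and 20.1 CPM in SS, groups that overlapped (log2 fold change 0.35 ± 0.13 (SE), adjusted p = 0.0479). Leaving out any of 8 of the 10 libraries ended the call, as did leaving out the low-complexity libraries (0.28 ± 0.16, adjusted p = 0.262). At HS21 in cortex edgeR called 0, where 1.00% of all genes were called in either direction. There 1 of 35 had an unadjusted p under 0.05, as did 1729 of all 15179 genes. Of the 35, 33 were below 0 with a median of -0.38, DESeq2 called 0 and limma voom 3.

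With all libraries, no difference in strain effect between the tissues passed the test. Called lower in NOX4 in both tissues were 9 genes (Ccne2, Cenpe, Cenpf, Kif20a, Mcm3, Mki67, Nusap1, Rrm1 and Top2a), which is 52.9% of the 17 called in outer medulla and 81.8% of the 11 called in cortex. The difference of the 2 strain effects, outer medulla minus cortex, was called for 0 of 35 genes by edgeR, where 11.0% of the 16326 genes tested jointly were called. DESeq2 called 0 of the 35. An unadjusted p under 0.05 in edgeR was reached by 3981 of the 16326 genes and by 2 of the 35. Those 2 were Birc5 (log2 fold change 0.62 ± 0.25 (SE), adjusted p = 0.106) and Tyms, which encodes thymidylate synthase (log2 fold change -0.41 ± 0.17 (SE), adjusted p = 0.111), both named after their values were seen. Without the low-complexity libraries Birc5 was called (0.83 ± 0.25, adjusted p = 0.0144), and without NOX4 HS7 cortex replicates 3 and 4 Rrm2 was (-0.84 ± 0.27, adjusted p = 0.0355). In cortex the strain difference also came with other marker lists. Of 10 fibroblast markers 8 were lower in NOX4 (sums of 424 to 1140 CPM in NOX4, 730 to 1710 CPM in SS), and of 17 injury markers 10 were lower and 1 higher (1140 to 3490 CPM in NOX4, 1430 to 5550 CPM in SS). S3 markers there were lower for 7 of 11 and higher for 1 (1560 to 4510 CPM in NOX4, 2070 to 6960 CPM in SS), the opposite of the outer medulla. Podocyte markers were higher for 7 of 7 (571 to 863 CPM in NOX4, 408 to 618 CPM in SS) and intercalated cell markers for 7 of 7 (668 to 1060 CPM in NOX4, 391 to 724 CPM in SS). No marker was at 0 in all libraries; their part was not tested. With the S3 covariate 5 of the 11 genes were called in cortex (Kif20a, Cenpe, Mki67, Mcm3 and Nusap1).

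In SS rats edgeR called few of these genes for salt, and 5 of the 6 calls were lost without the low-complexity libraries. The summed level of the 35 genes in SS cortex was 507 to 551 CPM at HS7 and 382 to 495 CPM at HS21. At LS it was 385 to 464 CPM, so HS7 lay above LS without overlap. In SS outer medulla the sums overlapped, at 613 to 837 CPM (HS7), 502 to 770 CPM (HS21) and 588 to 750 CPM (LS). The sums were not tested. Both salt groups of a strain are compared with the same LS libraries, so the 2 times share them. In SS cortex at HS7, 1 of 35 genes was called higher, where 1.17% of all genes were. Mcm6 had 12.6, 14.1, 14.02, 15.5 and 15.5 CPM at HS7, against 8.45, 5.25, 5.54, 8.19 and 8.06 CPM at LS, without overlap (log2 fold change 1.01 ± 0.27 (SE), adjusted p = 0.0439). At HS21, 2 of 35 were called higher, where 8.42% of all genes were. Cdkn1a had 16.4, 15.7, 20.4, 16.2 and 11.2 CPM at HS21, against 8.45, 6.61, 13.97, 6.87 and 8.06 CPM at LS (log2 fold change 0.86 ± 0.25 (SE), adjusted p = 0.0176), and the groups overlapped through LS replicate 3. Cdca8, the gene of the passenger complex protein borealin, had 8.197, 6.82, 6.63, 6.63 and 5.28 CPM at HS21, against 3.84, 2.70, 2.95, 4.58 and 4.94 CPM at LS, without overlap (log2 fold change 0.82 ± 0.27 (SE), adjusted p = 0.0368). None of these 3 calls was left without the low-complexity libraries (Mcm6 0.81 ± 0.41, adjusted p = 0.432; Cdkn1a 0.95 ± 0.33, adjusted p = 0.0838; Cdca8 0.61 ± 0.37, adjusted p = 0.31).

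In SS outer medulla at HS7, 2 of 35 genes were called higher, where 1.55% of all genes were. Aurka, the kinase that matures the spindle poles, had 16.6, 8.55, 23.2, 10.9 and 11.98 CPM at HS7, against 7.08, 6.80, 9.71, 7.61 and 4.30 CPM at LS (log2 fold change 1.00 ± 0.22 (SE), adjusted p = 0.0263). The highest value was replicate 3, and the ranges overlapped. Kif11 had 19.2, 17.3, 81.98, 43.5 and 23.6 CPM at HS7, against 15.3, 5.83, 14.97, 12.01 and 16.2 CPM at LS (log2 fold change 1.53 ± 0.39 (SE), adjusted p = 0.0396). All HS7 values were above all LS values. The 2 highest were replicates 3 and 4, both of low complexity, in which proximal tubule S1/S2 markers summed to 8362 and 2426 CPM, against 326 to 988 CPM in the other 3. Without low-complexity libraries Aurka had 0.49 ± 0.25, adjusted p = 0.64 and Kif11 0.59 ± 0.51, adjusted p = 0.855. At HS21, 1 of 35 was called lower, where 4.56% of all genes were. Ccne2 had 9.15, 9.82, 7.88, 7.59 and 6.53 CPM at HS21, against 12.2, 19.99, 10.8, 13.9 and 20.03 CPM at LS, without overlap (log2 fold change -0.91 ± 0.18 (SE), adjusted p = 0.0018), and -0.66 ± 0.17, adjusted p = 0.0223 without low-complexity libraries.

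In NOX4 outer medulla most of the genes had higher values at HS7 than at LS, without passing the adjusted threshold in edgeR. The median log2 fold change was 0.73, with 32 of 35 above 0, against 0.01 over all genes. Mki67 had 31.1, 33.2, 39.5, 54.5 and 28.9 CPM at HS7, against 8.63, 16.1, 24.2, 16.02 and 22.4 CPM at LS, without overlap (log2 fold change 1.10 ± 0.28 (SE), adjusted p = 0.172). Top2a had 28.96, 35.2, 23.4, 30.9 and 25.8 CPM at HS7, against 8.28, 14.9, 23.9, 14.5 and 19.4 CPM at LS (log2 fold change 0.83 ± 0.27 (SE), adjusted p = 0.204), and only LS replicate 3 reached the HS7 range. Named after their values were seen are Aurkb, the kinase of the passenger complex, with 7.09, 7.999, 8.99, 15.2 and 7.10 CPM at HS7 and 3.45, 3.53, 5.80, 4.44 and 4.78 CPM at LS, and Ube2c, an enzyme that tags mitotic proteins for destruction. Ube2c had 4.99, 7.13, 8.60, 11.7 and 5.47 CPM at HS7, against 2.13, 2.73, 3.70, 3.64 and 3.07 CPM at LS (log2 fold change 1.31 ± 0.34 (SE), adjusted p = 0.172). In both genes all HS7 values were above all LS values. The median over the 6 helicase genes was 0.28, and Pcna had a log2 fold change within its error of 0 (0.06 ± 0.11).

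By edgeR 0 of 35 genes were called in that comparison, where 0% of all 15799 genes were. An unadjusted p under 0.05 was reached by 23 of the 35, and by 2162 of all genes. DESeq2 called 8 higher (Aurkb, Bub1, Cenpe, E2f1, Kif20a, Mki67, Plk1 and Ube2c), where it called 0.785% of all genes in either direction. The authors' deposited table gives 9 higher at an adjusted p under 0.05 (E2f1, Cdk1, Aurkb, Bub1, Bub1b, Cdca8, Ube2c, Kif20a and Mki67), where it does so for 0.265% of 21122 genes in either direction. Macrophage markers summed to 1612, 2029, 2524, 3577 and 1484 CPM at HS7, against 1621, 1517, 1319, 1654 and 1388 CPM at LS, and lymphocyte markers to 116, 163, 124, 136 and 121 CPM, against 112, 106, 112, 118 and 107 CPM. HS7 replicates 3 and 4 stood apart from the other 3 HS7 libraries, and they held the 2 highest HS7 values of Mki67, Aurkb, Ube2c and the macrophage sum. Their thick ascending limb markers summed to 5986 and 6545 CPM, against 13720 to 17058 CPM in the other 3. Collecting duct markers summed to 4079 and 4540 CPM, against 1636 to 2717 CPM, and intercalated cell markers to 1600.4 and 1838 CPM, against 715 to 819 CPM. None of 13 macrophage markers passed the edgeR test, but neither did any of the 15799 genes, so this cannot show whether they changed. The part of these markers in the values was not tested.

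The other salt comparisons in NOX4 and the strain by salt interactions gave no call. In NOX4 outer medulla at HS21 edgeR called 0 of 35 (0% of all genes), with 1 at an unadjusted p under 0.05 and 0 by DESeq2; the median was 0.34 with 34 of 35 above 0. In NOX4 cortex it called 0 at HS7 and 0 at HS21 (0% and 0% of all genes), with 0 and 0 at an unadjusted p under 0.05 and 0 and 0 by DESeq2. The interaction, the salt effect in NOX4 minus that in SS, was called for 0 of 35 at HS7 in outer medulla (0% of all genes; 7 at an unadjusted p under 0.05, 0 by DESeq2) and for 0 at HS21 (0.0253%; 2 and 1). In cortex it was called for 0 at HS7 (0.0132%, with 5 at an unadjusted p under 0.05 and 0 by DESeq2) and for 0 at HS21 (1.08%, 3 and 0). Over all genes, 1676 and 1466 of 15799 in outer medulla had an unadjusted p under 0.05 for the interaction (HS7, HS21). In cortex 1980 and 2438 of 15179 did. For salt in NOX4, 249 of 15799 genes did in outer medulla at HS21, and 782 and 236 of 15179 in cortex (HS7, HS21).

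Levels were higher in outer medulla than in cortex for most of the set. With all 60 libraries scaled together (so that CPM differ slightly from those within a tissue) and strain and diet groups weighted equally, edgeR called 26 of 35 genes higher in outer medulla, where 37.6% of the 16326 genes tested were, and 3 lower, where 34.0% were. The median log2 fold change was 0.56, against 0.03 over all genes. All 6 helicase genes were higher. Mcm6 had 15.6 to 36.7 CPM (median 23.4) in the 30 outer medulla libraries, against 3.07 to 17.6 CPM (median 10.6) in the 30 cortex libraries (log2 fold change 1.19 ± 0.10 (SE), adjusted p = 2.62e-16), and 28 outer medulla libraries exceeded every cortex library. Mcm7 had 30.2 to 52.6 CPM (median 38.4) in the 30 outer medulla libraries, against 20.3 to 33.3 CPM (median 27.5) in the 30 cortex libraries (log2 fold change 0.49 ± 0.04 (SE), adjusted p = 1.05e-14). Mcm3 had 10.2 to 32.02 CPM (median 16.9) in the 30 outer medulla libraries, against 2.05 to 13.1 CPM (median 8.19) in the 30 cortex libraries (log2 fold change 1.18 ± 0.11 (SE), adjusted p = 1.16e-13), and for both of these 25 outer medulla libraries exceeded every cortex library. The 3 lower genes were Kif11, Tyms and Cdkn1a. Tyms had 4.65 to 21.2 CPM (median 13.2) in the 30 outer medulla libraries, against 13.2 to 24.5 CPM (median 18.2) in the 30 cortex libraries (log2 fold change -0.50 ± 0.09 (SE), adjusted p = 8.91e-07), and Cdkn1a had 2.05 to 29.4 CPM (median 7.84) in the 30 outer medulla libraries, against 5.995 to 22.98 CPM (median 11.6) in the 30 cortex libraries (log2 fold change -0.39 ± 0.15 (SE), adjusted p = 0.0172). The tissues overlapped for both, with 15 outer medulla libraries under every cortex library for Tyms and 7 for Cdkn1a. Markers of cells that can divide differed between the tissues as well. Macrophage markers summed to 938 to 3580 CPM in outer medulla and 281 to 896 CPM in cortex, and lymphocyte markers to 83.8 to 203 CPM and 22 to 79.1 CPM, without overlap for either list. Fibroblast markers summed to 1220 to 7210 CPM in outer medulla and 424 to 1710 CPM in cortex. Their part in the tissue difference was not tested.

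Kif11 (ENSRNOG00000056069) was the exception among the mitotic genes. It encodes the kinesin Eg5, which pushes spindle poles apart. Its level was 5.09 to 74.4 CPM (median 17.4) in the 30 outer medulla libraries, against 67.5 to 128 CPM (median 91.4) in the 30 cortex libraries (log2 fold change -2.22 ± 0.12 (SE), adjusted p = 6.77e-23), and 29 outer medulla libraries lay under every cortex library. On the length-scaled deposited FPKM (fragments scaled to transcript length and library size), Kif11 ranked 2 of the 35 genes in cortex with a median of 18.9 FPKM, behind Pcna with 41.7 FPKM. In outer medulla it ranked 17 with 3.75 FPKM, where Pcna led with 48.1 FPKM. Cenpe was lowest in both tissues, at 0.895 FPKM in outer medulla and 0.549 FPKM in cortex. Ranges over libraries overlapped for 33 of 34 pairs of rank neighbours in outer medulla and 33 of 34 in cortex, all but the pair led by Pcna (Pcna and Rrm1 in outer medulla, Pcna and Kif11 in cortex). Within outer medulla the library with the highest Kif11, SS HS7 replicate 3, also had the highest sum of S1/S2 markers (8362 CPM). S1/S2 markers summed to 171 to 8360 CPM in outer medulla libraries and 11200 to 21400 CPM in cortex libraries. Whether the segments set the Kif11 level was not tested.

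**Figure D5:**
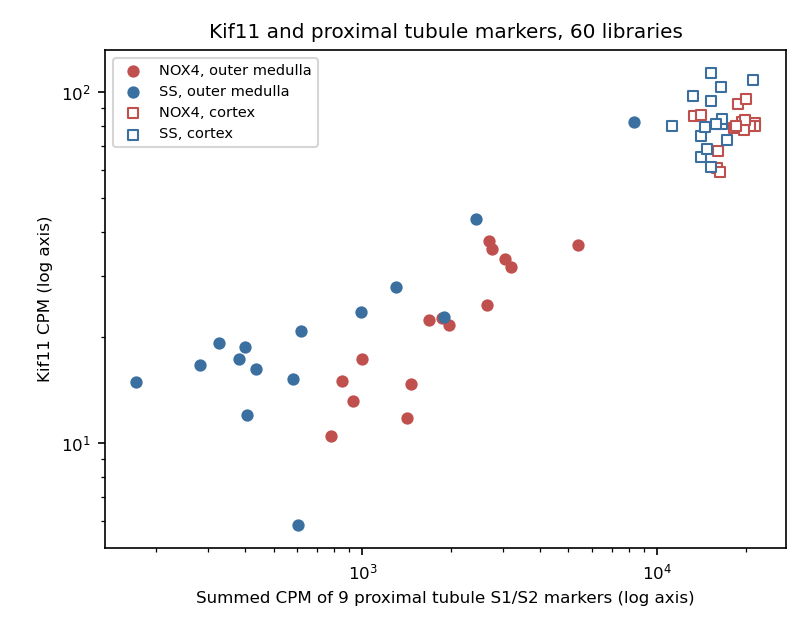
Kif11 level in CPM (y axis, log scale) against the summed CPM of 9 proximal tubule S1/S2 markers (x axis, log scale) in 60 libraries, with circles for outer medulla, squares for cortex, and colours for strain. Cortex libraries form a group at the upper right, and the SS HS7 outer medulla library with 82.0 CPM has the highest marker sum of its tissue.

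Within groups most pairs of the genes had positive correlations across libraries. For these values the mean log2 CPM of each strain and diet group was subtracted first. In outer medulla the median Pearson r over 595 pairs of genes was 0.33, with 502 pairs above 0 (30 libraries). Differences between strain and diet groups do not enter it, and the pairs share libraries. In cortex it was 0.53, with 511 pairs above 0, and 0.30 without NOX4 HS7 replicates 3 and 4. The same was not computed for pairs of other genes, so whether these values are high is not known. In cortex Kif11 (median r with the others -0.17), Tyms (-0.45), Ccne2 (0.06) and Mcm7 (0.13) stood outside, and without the 2 libraries the value of Tyms was 0.03 and that of Kif11 -0.15. A different measure, log2 CPM without that subtraction, was used for genes outside the set, so strain and diet differences enter these r values. Those that followed the mean of the set most closely were Prc1 (r = 0.942), Kif23 (0.873), Aspm (0.870), Pbk (0.867), Kif22 (0.865) and Iqgap3 (0.856) in outer medulla. In cortex they were Prc1 (0.955), Cdca3 (0.952), Kif22 (0.950), Cdkn3 (0.949), Iqgap3 (0.931) and Dlgap5 (0.927). These are descriptions over 30 libraries a tissue, with no test.

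Further cell cycle genes, 138 matched of 145 listed outside the set, were counted beside the set. In outer medulla, averaged over diets, 35 of 137 tested were lower and 5 higher, with a median of -0.27, where 15.1% of all genes were called lower. Without the low-complexity libraries 54 were lower, 28 of the 35 among them, and 11 higher, where 19.9% of all genes were lower. Of 58 mitosis and cytokinesis genes 23 were lower and 2 higher, among them Kif23, a motor of the central spindle (-0.72 ± 0.11, adjusted p = 5.14e-05; 6.57 ± 1.98 CPM in NOX4, 10.6 ± 2.26 CPM in SS; SD, n = 15 each). Kif4a had -0.77 ± 0.13, adjusted p = 0.000122, and the condensin genes Smc2 and Smc4 had -0.43 ± 0.08, adjusted p = 0.000433 and -0.31 ± 0.07, adjusted p = 0.000982. Replication genes were lower for 6 of 35, close to the share of all genes, and higher for 1. The lower ones included Gins3, Mcm10, Gins1 and Prim1 (-0.26 to -0.52). Of 20 G1 genes 2 were lower, a share no larger than that of all genes, Cdk6 (-0.50 ± 0.14, adjusted p = 0.00896) and Myc (-0.39 ± 0.13, adjusted p = 0.0204). Of 4 CDK inhibitor genes 2 were lower, Cdkn1c (-0.55 ± 0.18, adjusted p = 0.0188; 54.5 ± 14.0 CPM in NOX4, 80.7 ± 28.9 CPM in SS) and Cdkn2b (-0.83 ± 0.32, adjusted p = 0.0453). Of 20 p53 target genes 2 were higher and 2 lower, shares no larger than those of all genes (15.4% higher, 15.1% lower). The pro-death gene Bax (0.45 ± 0.11, adjusted p = 0.00281, with 42.0 ± 14.2 CPM in NOX4 and 30.9 ± 7.26 CPM in SS) and the stress gene Gadd45a (0.37 ± 0.08, adjusted p = 0.00213) rose. Pmaip1 (-0.80 ± 0.16, adjusted p = 0.00062) and Tp53inp1 (-0.51 ± 0.18, adjusted p = 0.0314) fell. The calls of Myc, Mcm10 and Tp53inp1 were lost without the low-complexity libraries (adjusted p = 0.0504, 0.068 and 0.399 by edgeR).

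In cortex 41 of 136 such genes were lower in NOX4 and 5 higher, with a median of -0.31, where 15.0% of all genes were called lower. Without NOX4 HS7 replicates 3 and 4, in which the mitosis and cytokinesis genes summed to 211 and 223 CPM against 440.1 to 465 CPM in the other 3 libraries of the group, 25 were lower and 5 higher, where 13.4% of all genes were lower. Without the low-complexity libraries 46 were lower, 29 of the 41 among them, where 16.1% of all genes were. Mitosis and cytokinesis genes were lower for 19 of 58, and for 10 without replicates 3 and 4, among them the kinase gene Melk (-1.17 ± 0.19, adjusted p = 4.56e-05; 7.38 ± 2.82 CPM in NOX4, 17.9 ± 10.3 CPM in SS; SD, n = 15 each), then Smc4 (-0.37 ± 0.06, adjusted p = 5.07e-05), Aspm (-0.76 ± 0.15, adjusted p = 0.000281) and Smc2 (-0.32 ± 0.07, adjusted p = 0.000719). Replication genes were lower for 9 of 35, and for 6 without those 2 libraries, with the primase gene Prim2 at -0.62 ± 0.12, adjusted p = 0.000282, the polymerase gene Pole at -0.67 ± 0.14, adjusted p = 0.000705 and Tk1 at -0.37 ± 0.10, adjusted p = 0.00496. Among 20 G1 genes 7 were lower and 1 higher: Cdk6 (-0.56 ± 0.10, adjusted p = 0.000114), the phosphatase gene Cdc25a (-0.33 ± 0.07, adjusted p = 0.000491) and Rbl1 (-0.52 ± 0.12, adjusted p = 0.00142) fell, and the cyclin gene Ccnd3 (0.29 ± 0.06, adjusted p = 0.00104) rose. The CDK inhibitor gene Cdkn1c was higher in NOX4 cortex (0.50 ± 0.09, adjusted p = 9.96e-05; 29.1 ± 5.59 CPM in NOX4, 20.7 ± 5.08 CPM in SS), against its lower level in NOX4 outer medulla; the difference between the tissues was not tested for this gene. Of 19 p53 target genes 3 were higher, close to the share of all genes called higher (16.7%). They were Bax (0.49 ± 0.08, adjusted p = 4.16e-05), Gadd45a (0.38 ± 0.07, adjusted p = 0.000143) and Sesn2 (0.35 ± 0.10, adjusted p = 0.00835) (the last not called without the low-complexity libraries). Lower were 6 (2 without NOX4 HS7 replicates 3 and 4), Pmaip1 among them (-1.01 ± 0.29, adjusted p = 0.00778).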

How the data were processed

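Snap-frozen tissue gave the RNA, and libraries were poly(A)-selected, per the labels' protocols. Per the submitters' processing notes, the authors used HISAT2 2.0.5, StringTie 1.3.3b and featureCounts 1.5.0-p3; build and strandedness are not given in the sources used here. Per the file headers, the deposited table holds a raw read count and an FPKM per gene and library, and a log2 fold change, p-value and adjusted p-value for the authors' comparisons. The 36 columns of group means were not used.

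The deposited counts entered edgeR 4.0.16 (R 4.3.3): filterByExpr by group, TMM scaling, and a quasi-likelihood F test with 1 coefficient per group over the 30 libraries of a tissue, or all 60 for tissue comparisons. P-values were Benjamini-Hochberg adjusted over all genes tested, 15799 in outer medulla, 15179 in cortex and 16326 jointly. The SE is the log2 fold change over the square root of F. CPM uses TMM-scaled totals. All 35 genes passed the filter in both tissues. Alternatives used DESeq2 1.42.0 and limma 3.58.1. The test was checked on simulated data with known changes between the strains at LS. In outer medulla it found 15.9% of 1.5-fold, 60% of 2-fold and 80.5% of 4-fold changes. In cortex it found 44.6%, 67.1% and 87.7%. A gene that was not called may therefore still differ by such amounts.

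Named in full are, per tissue, the 6 genes with the smallest p for the averaged strain comparison plus Mki67, Top2a, Mcm2, Ccne1 and Cdkn1a; up to 3 called genes per single-diet, salt or tissue comparison and direction; and up to 4 called genes of each further list, of which 1 is not reported here. Members and lists were chosen with earlier results of these data known. Of 311 listed symbols 297 matched. Same-numbered libraries did not deviate together (0 of 15 pairs of groups by correlation in either tissue), so numbers were not treated as pairs. Between the tissues 0 of 6 pairs of groups did, although 4 SS LS cortex libraries correlated best with the same number in outer medulla. Tests over all 60 libraries treated those of the tissues as independent.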

Additional observations from a re-analysis of the deposited data

Results flagged for a closer look

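In 216 groups of 5 libraries, formed by 19 named cell cycle genes and the summed level of all 35, 10 had a highest or lowest library whose gap to its neighbour exceeded 0.71 of the group's range; chance alone flags about 1 in 20 groups. In SS outer medulla the flagged libraries at LS were replicate 3 for Cdkn1a (highest, 34.5 CPM) and for the summed level of the 35 genes (highest, 750.5 CPM), and replicate 4 for Tyms (lowest, 13.8 CPM). At HS7 replicate 3 was lowest for Bub1 (8.99 CPM) and Mki67 (20.2 CPM). In NOX4 outer medulla the flagged libraries were replicate 5 at LS for Mcm2 (highest, 48.5 CPM), replicate 2 at LS for Ccne1 (lowest, 0.934 CPM) and replicate 3 at HS21 for Bub1 (highest, 10.4 CPM). In cortex they were SS LS replicate 3 for Cdkn1a (highest, 14.0 CPM) and NOX4 LS replicate 3 for Kif11 (lowest, 60.9 CPM). No explanation was tested for these values.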

How the results depend on the processing

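Counts of called cell cycle genes are given by setting. The main counts were 17, 12, 1 and 0 for NOX4 against SS in outer medulla (averaged, LS, HS7, HS21) and 11, 1, 10 and 0 in cortex. For salt in SS they were 2 (HS7) and 1 (HS21) in outer medulla and 1 and 2 in cortex. With DESeq2 size factors, without the low-count filter, requiring 1 CPM in 5 libraries, with the S3 covariate or limma voom with quality weights, the cortex LS count was 0. Without a filter the SS cortex HS7 count was 0 as well. With the replicate block the cortex LS count was 0 and the SS outer medulla HS7 count 1 (Kif11 lost), and no other count of calls moved by over 1.5 times; the averaged counts were 15 in outer medulla and 9 in cortex. By DESeq2 the counts were 0 for cortex LS, 3 and 4 for SS cortex HS7 and HS21, 4 and 2 for SS outer medulla HS7 and HS21, 1 for outer medulla HS21, 8 for NOX4 outer medulla HS7 and 1 for the outer medulla interaction at HS21. In fits of the compared groups alone they were 2, 0 and 2 for cortex LS, HS7 and HS21, 0 and 4 for SS cortex HS7 and HS21, 0 and 5 for outer medulla HS7 and HS21, and 0 for SS outer medulla HS7. In the authors' deposited table, at an adjusted p under 0.05, 12, 1 and 9 genes were lower in NOX4 outer medulla (LS, HS7, HS21). Of all genes 17.1%, 1.1% and 25.6% passed in either direction. In cortex 3, 3 and 2 were lower and 1, 0 and 1 higher (16.6%, 7.1% and 9.38% of all genes). For salt in SS (HS7, HS21), 0 and 3 were higher and 0 and 1 lower in outer medulla (0.304% and 13%). In SS cortex 2 and 6 were higher (0.542% and 15.1%).

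Without the low-complexity libraries the counts were 0 for cortex LS, 0 and 0 for SS cortex HS7 and HS21, 4, 2 and 3 for outer medulla LS, HS7 and HS21, 0 for SS outer medulla HS7, 2 for NOX4 outer medulla HS7 (E2f1 and Ube2c), and 1 for the strain effect in outer medulla minus cortex (Birc5). Without NOX4 HS7 cortex replicates 3 and 4 they were 3 for cortex LS, 0 for cortex HS7, 7 for the cortex average, 5 and 6 for SS cortex HS7 and HS21, which share the fitted spread, and 1 for the difference between tissues (Rrm2). With the S3 covariate the averages were 5 in outer medulla and 5 in cortex, and outer medulla LS 4. By limma voom they were 1 and 3 for cortex HS7 and HS21, and 8 and 27 for outer medulla HS7 and HS21. The shares of all genes called by limma voom are not given here. The further cell cycle genes were recounted without these libraries by a choice made after seeing the data: 54 in place of 35 were lower in outer medulla without the low-complexity libraries, and in cortex 25 in place of 41 without replicates 3 and 4. The causes were not tested.

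Leaving out 1 library at a time gave 13 to 18 (outer medulla average), 8 to 11 (LS), 0 to 6 (HS7) and 0 to 2 (HS21) genes in outer medulla, and 8 to 14 (average), 0 to 1 (LS) and 1 to 13 (HS7) in cortex. For salt in SS it gave 0 to 4 and 1 to 3 in outer medulla and 0 to 2 and 0 to 3 in cortex. The cortex interaction at HS7 gave 0 to 1, the tissue comparison 28 to 31 and the difference of strain effects 0 to 1. At least 1 omission ended the averaged calls of Ccna2, E2f1, Mcm3 and Nusap1 in outer medulla (adjusted p up to 0.104) and of Birc5, Mcm3, Mcm7 and Nusap1 in cortex (up to 0.0955). The same held for Cenpf, E2f1, Mcm4, Rrm2 and Tpx2 at LS and Rrm1 at HS7 in outer medulla, for every call at HS7 in cortex except Mcm6, and for every salt call in SS except Ccne2.

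Changes of sign were confined, among the named genes, to Mcm2, Ccne1 and Cdkn1a, which were not called in the diet-averaged comparison. Averaged Mcm2 in cortex was -0.00168 without low-complexity libraries and -0.130 with the S3 covariate, and -0.00997 to 0.0562 without single libraries. In outer medulla with the S3 covariate, Mcm2 was 0.162, Ccne1 0.0685 and Cdkn1a 0.298. Ccne1 there ranged over -0.221 to 0.0535 without single libraries, the highest without SS LS replicate 4. Genes of a few CPM, such as Cenpe, Ccne1 and Cenpf in cortex, rest on few reads.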
